A study of Mus musculus with 16 samples.

Results

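Collagens, laminins and a listed set of other extracellular matrix genes were followed in endothelial cells of mouse liver, lung and heart. The cells were labelled as Erg and Fli1 double knockout or as wild type. The genes were chosen by symbol: Col, digits, a, digits (such as Col4a1), or Lama, Lamb or Lamc plus a digit, together with Nid1, Nid2, Hspg2, Fn1, Fbn1, Fbn2, Eln, Sparc, Tnc, Bgn, Dcn, Thbs1, Thbs2 and Thbs4. Such a symbol was carried by 69 of the 52636 genes in the deposited counts, and 59 of these reached 1 CPM (counts scaled per 1e6 reads of effective library size) in at least 2 of the 16 libraries. These 59 are the matrix genes described here, out of 19646 genes tested. The set was chosen with earlier results of these data known, so its counts are no independent evidence. The other 10 were Col2a1, Col6a4, Col9a1, Col9a2, Col10a1, Col11a1, Col19a1, Col22a1, Col24a1 and Col26a1. Col6a4 and Col11a1 reached 2.04 and 1.61 CPM in 1 library each, lung KO-labelled 1 and heart KO-labelled 1, and the remaining 8 stayed at or below 0.973 CPM in every library. A gene could pass this minimum through a single group, so some of the 59 entered only because 1 tissue or genotype expressed them.

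Liver and lung were represented by 3 libraries labelled Erg and Fli1 double knockout and 3 labelled wild type, and heart by 2 of each. The libraries are called KO-labelled and control here. All animals had received tamoxifen, a drug that switches on an inducible recombinase, and cells were taken 10 days later. The sources used here give neither the driver of the recombinase nor the strain, the age of the animals or whether animals were pooled. Sex was read here from the counts, as male where summed Ddx3y, Eif2s3y, Kdm5d and Uty exceeded Xist. By this rule 1 of 3 libraries was male in each liver and lung group, 1 of 2 in KO-labelled heart and 0 of 2 in heart controls. Sex and genotype were thus not balanced in heart. Endothelial cells had been labelled in the living animal with an antibody to VE-cadherin, freed with collagenase and dispase, and sorted as live cells that lacked CD45 and carried CD31 and VE-cadherin. Polyadenylated RNA was sequenced, and whole-gene read counts were deposited.

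The extracellular matrix under the endothelium is a basement membrane, a thin sheet in which a laminin network and a collagen IV network are linked by nidogens and the proteoglycan perlecan. Laminins are heterotrimers of an alpha, a beta and a gamma chain, and collagen IV molecules are assembled from 3 alpha chains, most often alpha1 and alpha2. Around larger vessels and in the interstitium lie fibrillar collagens, fibronectin, fibrillin and elastin, which are mostly produced by fibroblasts and smooth muscle cells. Matricellular proteins such as thrombospondins, tenascin C and SPARC act on cells and on growth factors rather than bearing load. Erg and Fli1 are ETS-family transcription factors of endothelial cells.

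Total counts ran from 30226340 to 41449054 per library. Nothing in the labels says that every library came from its own animal, so p-values measure the spread between libraries, which may partly be technical. Whole-gene counts of Erg fell in liver (130.7 to 165 CPM in KO-labelled libraries, against 337 to 371 CPM in controls) and in lung (log2 change −0.52, adjusted p = 0.0231). In heart Erg did not pass (log2 change −0.47, adjusted p = 0.0538). Fli1 fell in no tissue and rose in lung (98.2 to 138 CPM in KO-labelled libraries, against 76.6 to 77.9 CPM in controls, log2 change 0.69, adjusted p = 0.0131). No source used here names the exons that were deleted, so whole-gene counts do not check the labels. Liver KO-labelled library 3 stood apart from its group, with correlations of 0.968 and 0.964 to the others, against 0.982 between those. For named genes past the threshold given below, log2 changes that move by more than 1.5 times without this library are given both ways. All 10 defining endothelial markers were detected in every group. Their summed level was 12515 to 18812 CPM in KO-labelled liver and 19567 to 21636 CPM in liver controls, 10458 to 12713 CPM in KO-labelled lung and 15897 to 16841 CPM in lung controls, and 9429 to 11003 CPM in KO-labelled heart and 15782 to 16206 CPM in heart controls. Of the 10, 4 fell in liver, 5 fell and Emcn rose in lung, and 6 fell in heart (median log2 changes −0.25, −0.68 and −0.76). Tie1, Tek, Esam and Robo4 fell in each tissue. Cdh5 and Pecam1, which encode the VE-cadherin and CD31 used in the sort, passed in no tissue. In sorted bulk samples fewer cells of a type and less RNA per cell cannot be told apart. Tests are edgeR quasi-likelihood tests in 1 fit of all 16 libraries, with Benjamini-Hochberg adjustment over all 19646 genes. The 6 groups share 1 estimate of spread per gene, because heart has only 2 libraries a group. Whether a gene passed in heart therefore also depends on its spread in liver and lung. The words rose and fell are kept for genes past an adjusted p of 0.05, and log2 changes are KO-labelled over control.

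The genes of the main collagen IV chains, Col4a1 and Col4a2, lie head to head on chromosome 8, and their promoter windows are shown because both genes rose together in liver and lung. RefSeq promoter windows (GRCm38.p6, 250 bases before to 50 after the annotated start) were on hand for 41 of the 59 genes. Of each of these 41 genes only the first listed window was used. Such a window can lie inside the gene rather than at its outer end, as those of Col27a1 and Lamb3 do. The start sites of Col4a1 and Col4a2 were 21 bases apart on opposite strands, so that their windows shared 78 bases, which are in capitals. Each sequence is written 5′ to 3′ on its own gene's strand, and the capitals of one are the reverse complement of those of the other.
Col4a1 (chr8:11312777-11313076, minus strand): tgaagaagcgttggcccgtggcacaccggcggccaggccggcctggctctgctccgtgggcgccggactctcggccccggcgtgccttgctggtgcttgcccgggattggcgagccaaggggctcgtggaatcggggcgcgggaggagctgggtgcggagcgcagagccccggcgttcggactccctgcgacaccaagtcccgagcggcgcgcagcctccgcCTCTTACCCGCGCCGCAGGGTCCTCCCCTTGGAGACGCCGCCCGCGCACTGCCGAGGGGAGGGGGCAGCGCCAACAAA
Col4a2 (chr8:11312555-11312854, plus strand): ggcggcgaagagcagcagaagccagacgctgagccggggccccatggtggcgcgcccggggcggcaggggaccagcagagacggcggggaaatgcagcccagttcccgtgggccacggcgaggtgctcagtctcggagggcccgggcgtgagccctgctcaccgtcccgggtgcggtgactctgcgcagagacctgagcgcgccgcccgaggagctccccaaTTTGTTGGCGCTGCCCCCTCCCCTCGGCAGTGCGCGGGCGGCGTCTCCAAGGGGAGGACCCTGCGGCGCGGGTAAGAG

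Col17a1, Col27a1, Nid1 and Bgn are shown for contrast, since Nid1 and Bgn rose in all 3 tissues, Col17a1 had the largest fall and Col27a1 changed in opposite directions between tissues. Capitals mark GGAA or its reverse complement TTCC, the core letters of ETS binding sites, on either strand.
Nid1 (chr13:13437352-13437651, plus strand): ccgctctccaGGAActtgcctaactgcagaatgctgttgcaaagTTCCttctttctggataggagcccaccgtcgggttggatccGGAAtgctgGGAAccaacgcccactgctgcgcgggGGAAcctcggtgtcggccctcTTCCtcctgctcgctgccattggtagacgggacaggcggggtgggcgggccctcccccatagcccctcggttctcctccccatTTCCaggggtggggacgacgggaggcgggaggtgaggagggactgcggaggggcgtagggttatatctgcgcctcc
Bgn (chrX:73483351-73483650, plus strand): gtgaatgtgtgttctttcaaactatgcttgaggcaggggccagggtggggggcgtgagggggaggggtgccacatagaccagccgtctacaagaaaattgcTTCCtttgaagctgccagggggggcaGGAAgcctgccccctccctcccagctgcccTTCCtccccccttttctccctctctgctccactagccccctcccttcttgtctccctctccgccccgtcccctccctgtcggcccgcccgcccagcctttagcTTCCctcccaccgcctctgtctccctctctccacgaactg
Col27a1 (chr4:63215162-63215461, plus strand): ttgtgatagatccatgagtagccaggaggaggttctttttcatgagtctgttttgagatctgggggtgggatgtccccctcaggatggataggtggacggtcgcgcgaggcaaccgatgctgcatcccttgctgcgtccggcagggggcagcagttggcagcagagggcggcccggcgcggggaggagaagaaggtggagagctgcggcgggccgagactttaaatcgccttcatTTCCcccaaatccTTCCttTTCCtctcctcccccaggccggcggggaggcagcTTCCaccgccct
Col17a1 (chr19:47691993-47692292, minus strand): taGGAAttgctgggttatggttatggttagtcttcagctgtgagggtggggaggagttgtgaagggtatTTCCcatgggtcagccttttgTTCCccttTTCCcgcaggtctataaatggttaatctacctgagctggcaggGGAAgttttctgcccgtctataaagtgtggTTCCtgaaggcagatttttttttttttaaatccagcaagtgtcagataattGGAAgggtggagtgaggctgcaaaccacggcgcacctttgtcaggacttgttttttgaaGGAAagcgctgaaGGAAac
GGAA was found on either strand in all 41 of the windows, and in 96.0% of the 32851 promoter windows of the same length in the RefSeq table. Those 32851 include every listed window, so a gene with several counts more than once, unlike the 41. The median was 4 matches a window among the 41 and 3 among all windows. The longer letters CAGGAAG, which contain GGAA, were in 5 of the 41 (12.2%) and in 13.3% of all windows. CCGGAAG, which also contains GGAA, was in none of the 41 and in 8.86% of all windows. A match is a match of letters and not a measured binding site.

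Of the 59 matrix genes, 14 rose and 6 fell in KO-labelled liver, 8 rose and 5 fell in lung, and 16 rose and 2 fell in heart. The shares past the threshold were 33.9%, 22.0% and 30.5%, against 19.4%, 8.46% and 19.3% of all genes tested and 23.1%, 10.1% and 22.7% of the 15898 genes that met the same 1 CPM minimum. By direction, 9.54% of all tested genes rose and 9.87% fell in liver, 4.35% rose and 4.11% fell in lung, and 10.2% rose and 9.09% fell in heart. The median log2 change over the matrix genes was 0.20 in liver, −0.17 in lung and 0.84 in heart, beside 0.02, −0.02 and 0.01 over all tested genes. Each tissue thus had more higher than lower calls among the matrix genes, while the median log2 change was below 0 in lung. Without lung control 2 or 3 the number called in lung was 8 or 7 rather than 13, and without heart control 2 the number in heart was 11 rather than 18. A fit of the heart libraries alone called 28.

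The summed level of the 59 genes was 13774 to 20352 CPM in KO-labelled liver and 11345 to 13221 CPM in liver controls. Lung had 9617 to 10798 CPM in KO-labelled libraries and 6094 to 6929.7 CPM in controls, and heart 33668 to 35820.1 CPM in KO-labelled libraries and 18147 to 22139 CPM in controls. In each tissue every KO-labelled library lay above every control. These sums weigh the abundant genes most and do not describe the set gene by gene. In lung Col4a1 and Col4a2 averaged 3015 and 2055 CPM in KO-labelled libraries, against 1535 and 941 CPM in controls. In liver they averaged 4080 and 2322 CPM in KO-labelled libraries, against 1899 and 1093 CPM in controls. In all, 29 genes passed in at least 1 tissue and 30 in none. Bgn, Lamc1 and Nid1 rose in all 3 tissues and Lama3 fell in all 3. Col16a1, Col18a1, Col5a1, Fbn1, Lama5 and Thbs1 rose in liver and heart, and Lama4 fell in both. Col4a1 and Col4a2 rose in liver and lung, and Fn1 and Thbs4 in lung and heart. Col27a1 fell in liver and lung and rose in heart. A further 12 passed in a single tissue. Passing in one tissue and not in another is no test of a difference between them, which is given further on.

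**Figure D1:**
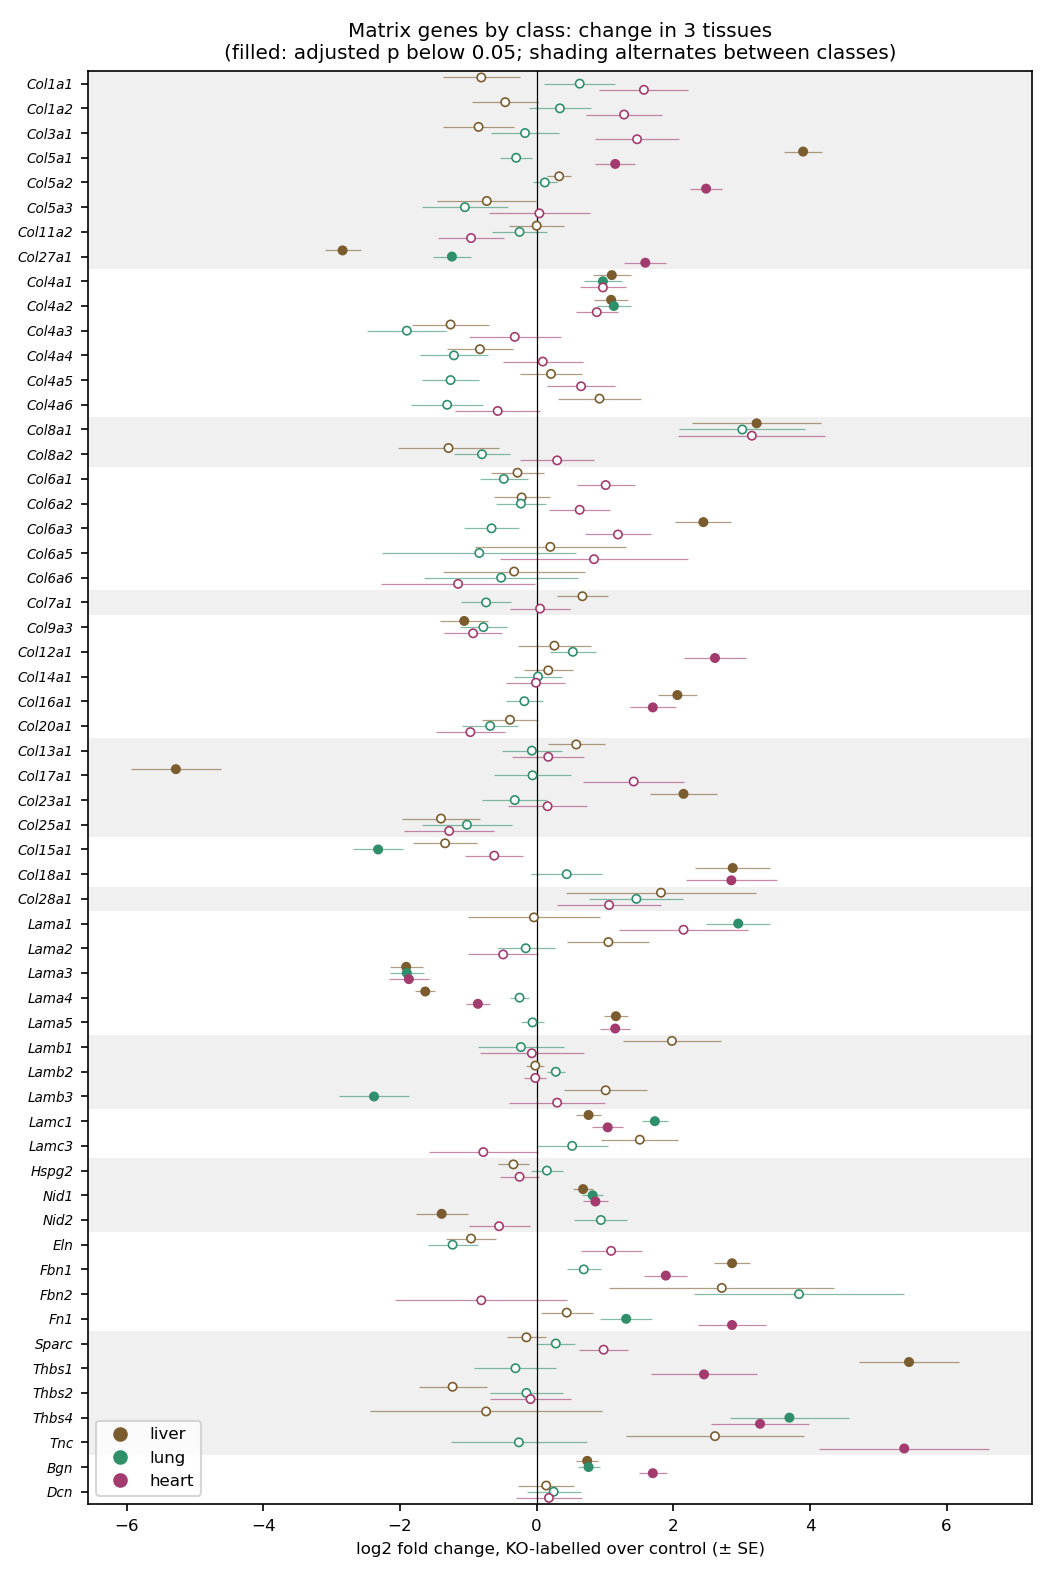
Log2 fold change of KO-labelled over control libraries for 58 of the 59 matrix genes in liver, lung and heart, with bars of 1 SE, and filled points for adjusted p below 0.05. Shading alternates between gene classes. Heart points lie mostly right of 0 (median 0.84), Lama3 is near −1.9 in all 3 tissues, and Thbs1 in liver and Tnc in heart reach past 5.

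Collagen IV led the set in abundance. Per kilobase of exon, Col4a1 had the highest mean level of the 59 genes in every group other than the liver controls, where Sparc came first. Col4a1 (chr8:11198423-11312826, minus strand, GRCm38) encodes the alpha1 chain, and had 5649.6, 4305 and 2285 CPM in the KO-labelled liver libraries, against 2231, 1721 and 1746 CPM in the liver controls (log2 change 1.1, SE 0.275, adjusted p = 0.0117). The KO-labelled libraries all lay above the controls, but library 3 came close to the highest control, and without liver KO-labelled 1 the adjusted p was 0.0531 (log2 change 0.8). In lung Col4a1 had 2973, 3228 and 2843 CPM in the KO-labelled libraries, against 1699, 1426 and 1479 CPM in the controls (log2 change 0.97, SE 0.274, adjusted p = 0.0421). The groups did not overlap, and leaving out any 1 of liver control 2, liver control 3, lung KO-labelled 1, lung KO-labelled 2, lung KO-labelled 3, lung control 1, lung control 2 or lung control 3 gave an adjusted p of 0.052 to 0.129. Heart had 6018 and 6984 CPM in the KO-labelled libraries, against 3982 and 2660.2 CPM in the controls, also without overlap, which did not pass (log2 change 0.97, SE 0.336, adjusted p = 0.0586). A fit of the liver groups alone gave Col4a1 an adjusted p of 0.0556.

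Col4a2 (chr8:11312805-11449287, plus strand) encodes the alpha2 chain that joins alpha1. It had 3179.6, 2404 and 1382 CPM in the KO-labelled liver libraries, against 1217, 1005 and 1058 CPM in the liver controls (log2 change 1.09, SE 0.254, adjusted p = 0.00797). Lung had 1929, 2146 and 2091 CPM in the KO-labelled libraries, against 1006, 882 and 936 CPM in the controls (log2 change 1.13, SE 0.254, adjusted p = 0.0139), and leaving out any 1 of lung control 2 or lung control 3 gave an adjusted p of 0.0543 to 0.0571. Heart had 3943 and 4205 CPM in the KO-labelled libraries, against 2727 and 1704 CPM in the controls and did not pass (log2 change 0.88, adjusted p = 0.0626). Both chains moved in step in these libraries: the ratio of Col4a1 to Col4a2, per kilobase of exon, lay between 1.21 and 1.63 in every one of the 16 libraries, and the 2 genes made up 98.5% to 99.8% of all collagen IV RPKM (CPM per kilobase of exon). The Col4a3, Col4a4, Col4a5 and Col4a6 genes encode the chains of specialised basement membranes such as that of the kidney glomerulus, and none passed in any tissue. Their group means ran from 0.284 ± 0.256 CPM for Col4a6 in liver controls to 21.8 ± 4.75 CPM for Col4a4 in KO-labelled heart. Col4a3 had 2.92 ± 1.14 CPM in KO-labelled lung and 10.95 ± 6.21 CPM in lung controls (log2 change −1.9, adjusted p = 0.0582), and overlapped between the groups.

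Nidogens bridge the laminin and collagen IV networks, and the 2 genes differed. Nid1 (chr13:13437551-13512269, plus strand) had 1699, 1299 and 1247 CPM in the KO-labelled liver libraries, against 1018, 843 and 796 CPM in the liver controls (log2 change 0.68, SE 0.1501, adjusted p = 0.00588). In lung it had 438, 448 and 405 CPM in the KO-labelled libraries, against 211, 251 and 269.6 CPM in the controls (log2 change 0.82, SE 0.1505, adjusted p = 0.00419), and in heart 1013 and 1002 CPM in the KO-labelled libraries, against 575 and 536 CPM in the controls (log2 change 0.86, SE 0.184, adjusted p = 0.00575). No KO-labelled library overlapped a control in any tissue. In heart without heart control 2 the adjusted p was 0.0544 (log2 change 0.81). Nid2 (chr14:19751265-19811787, plus strand) fell in liver, with 20.5, 4.73 and 11.7 CPM in the KO-labelled libraries, against 23.8, 42.04 and 30.7 CPM in the controls (log2 change −1.39, SE 0.379, adjusted p = 0.0195). That call was close to the threshold, since leaving out any 1 of liver KO-labelled 3 or liver control 2 gave an adjusted p of 0.0527 to 0.0808, and a fit of the liver groups alone gave 0.0953. In heart Nid2 had 129.7 and 143 CPM in the KO-labelled libraries, against 216 and 183 CPM in the controls, and in lung 9.11 ± 1.88 CPM in KO-labelled lung and 4.75 ± 1.14 CPM in lung controls, and neither passed. Of the exon bases of Nid2, 8.45% also lie in exons of Rtraf on the other strand, whose reads may be counted with it. Hspg2 encodes perlecan, the heparan sulphate proteoglycan of basement membranes. It had 2373, 1917 and 2176 CPM in the KO-labelled liver libraries, against 3297, 2546 and 2343 CPM in the liver controls and 4443 and 5257 CPM in the KO-labelled heart libraries, against 6182 and 5385 CPM in the heart controls, and the log2 changes of −0.34, 0.15 and −0.25 in liver, lung and heart did not pass. In lung it had 76.3, 94.4 and 142 CPM in the KO-labelled libraries, against 89.1, 78.8 and 113 CPM in the controls.

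**Figure D2:**
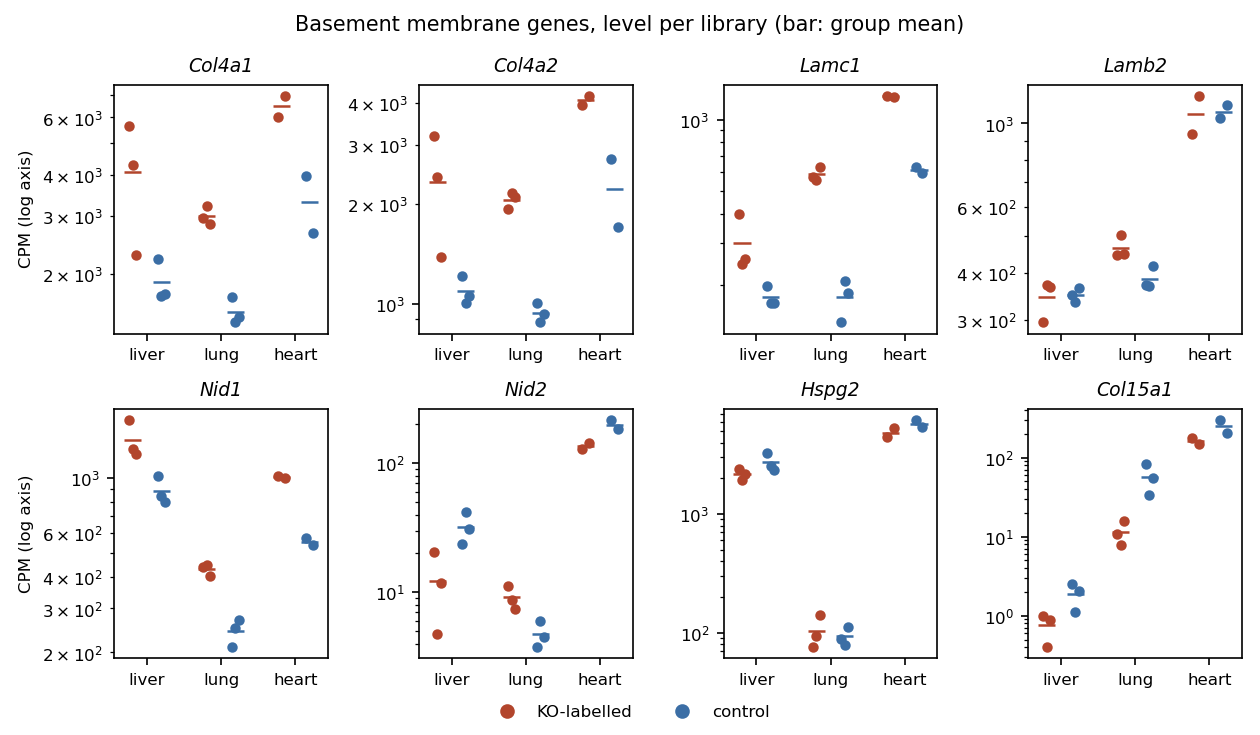
Level in CPM on a log axis for 8 basement membrane genes in each library of liver, lung and heart, KO-labelled libraries left of controls, with bars at group means. Col4a1, Col4a2, Lamc1 and Nid1 lie higher in every KO-labelled library than in any control of the same tissue, while Lamb2 and Hspg2 show no shared direction.

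Laminin alpha chains, which carry the cell-binding end of the trimer, changed their relative abundance in each tissue. The share of Lama5 was larger in KO-labelled liver and heart and smaller in KO-labelled lung. Lama5 and Lama4 encode the alpha chains of the main laminins of blood vessels. Lama5 (chr2:180176373-180225859, minus strand) had 439, 493 and 624 CPM in the KO-labelled liver libraries, against 230.3, 255 and 212 CPM in the liver controls (log2 change 1.16, SE 0.176, adjusted p = 0.000418). In heart it had 1777 and 1669 CPM in the KO-labelled libraries, against 825 and 725 CPM in the controls (log2 change 1.15, SE 0.216, adjusted p = 0.0025). Both tissues were without overlap. In lung Lama5 had 822, 613 and 876 CPM in the KO-labelled libraries, against 674, 830.3 and 909.9 CPM in the controls, groups that overlapped (log2 change −0.06, adjusted p = 0.88). Lama4 (chr10:38965515-39110188, plus strand) went the other way, with 135, 107 and 132 CPM in the KO-labelled liver libraries, against 468, 331 and 354 CPM in the liver controls (log2 change −1.63, SE 0.148, adjusted p = 6.57e-06). Heart had 313 and 283 CPM in the KO-labelled libraries, against 601 and 478 CPM in the controls (log2 change −0.86, SE 0.178, adjusted p = 0.0046), and without heart control 1 the adjusted p was 0.058 (log2 change −0.67). In lung Lama4 had 32.4 ± 1.42 CPM in KO-labelled lung and 38.6 ± 3.31 CPM in lung controls, which did not pass (log2 change −0.25, adjusted p = 0.332).

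Expressed as shares of the summed laminin alpha RPKM, Lama5 made up 75.9 to 82.05% in KO-labelled liver and 31.8 to 41.5% in liver controls. Lama4 made up 16.3 to 22.003% in KO-labelled liver and 50.7 to 60.97% in liver controls. In heart the Lama5 share was 84.1 to 84.2% in KO-labelled libraries and 54.3 to 57.4% in controls, and the Lama4 share 13.5 to 13.98% in KO-labelled libraries and 35.6 to 37.4% in controls. Liver controls were thus the single group in which Lama4 exceeded Lama5. In lung the Lama5 share was 76.2 to 87.4% in KO-labelled libraries and 89.6 to 92.6% in controls, and the Lama1 share was 8.71 to 19.9% in KO-labelled libraries and 1.23 to 2.95% in controls. These shares are descriptions, since no test was made of a share.

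**Figure D3:**
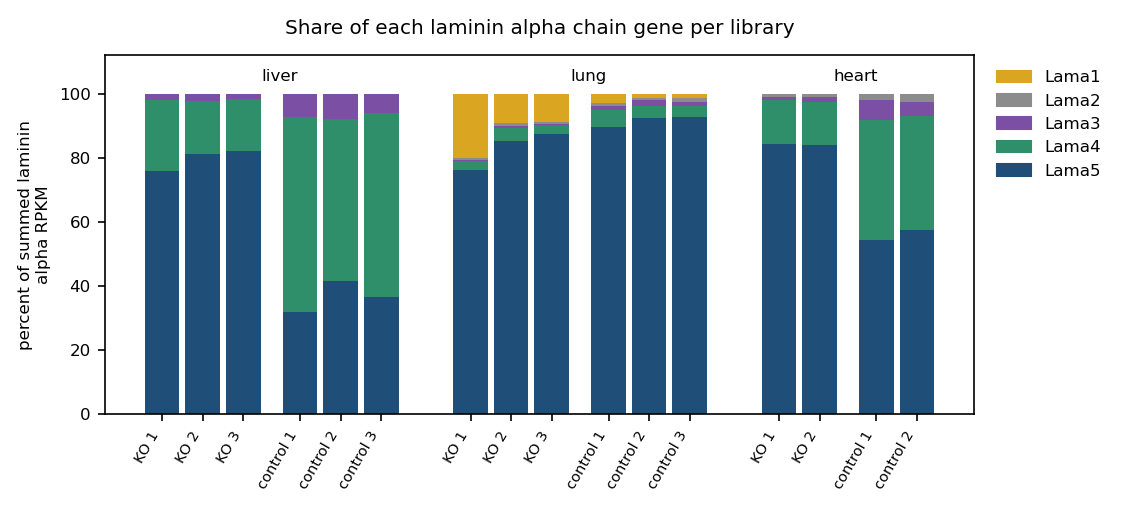
Share of each of the 5 laminin alpha genes in the summed laminin alpha RPKM of each library, in percent, as stacked bars, KO-labelled libraries left of the controls of the same tissue. The Lama5 part is larger in every KO-labelled liver and heart library than in the controls. In lung it is smaller in every KO-labelled library, and Lama1 is visible.

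Lama1 encodes the alpha chain of the main laminin of the early embryo. In lung it had 183, 54.99 and 74.2 CPM in the KO-labelled libraries, against 18.9, 9.37 and 12.1 CPM in the controls (log2 change 2.95, SE 0.469, adjusted p = 0.00165), without overlap. Library 1 held the highest value, and without it the log2 change was 2.27, adjusted p = 0.00686. In liver and heart Lama1 stayed below 1 CPM in every library. Lama3 (chr18:12333819-12583013, plus strand), the alpha chain of an epithelial laminin, fell by a like amount in each tissue. It had 11.1, 11.9 and 10.6 CPM in the KO-labelled liver libraries, against 48.9, 44.9 and 32.6 CPM in the liver controls (log2 change −1.91, SE 0.242, adjusted p = 9.61e-05). Lung had 3.203, 2.95 and 2.91 CPM in the KO-labelled libraries, against 8.31, 14.2 and 11.4 CPM in the controls (log2 change −1.9, SE 0.2499, adjusted p = 0.000556), and heart 15.2 and 24.4 CPM in the KO-labelled libraries, against 89.8 and 54.6 CPM in the controls (log2 change −1.87, SE 0.293, adjusted p = 0.000802). Controls lay above every KO-labelled library in each case. Lama2, the alpha chain of muscle laminin, did not pass in any tissue and had 31.1 ± 0.353 CPM in KO-labelled heart and 43.6 ± 0.0562 CPM in heart controls.

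Among beta chains, Lamb2 had the highest level per kilobase of exon in each tissue and passed nowhere, with 295, 372 and 367 CPM in the KO-labelled liver libraries, against 349, 335 and 364 CPM in the liver controls. It had 446, 506 and 449 CPM in the KO-labelled lung libraries, against 372, 369 and 416 CPM in the lung controls, and 939 and 1185 CPM in the KO-labelled heart libraries, against 1032 and 1118 CPM in the heart controls. Lamb1, the other widespread beta chain, had 503 and 380.2 CPM in the KO-labelled heart libraries, against 541 and 384 CPM in the heart controls (log2 change −0.07, adjusted p = 0.98), and in liver 7.75 ± 10.1 CPM in KO-labelled liver and 1.96 ± 0.231 CPM in liver controls (log2 change 1.98, adjusted p = 0.0711). Its liver values were 2.35, 1.45 and 19.4 CPM in the KO-labelled libraries, against 1.9, 2.21 and 1.76 CPM in the controls. Library 3 thus carried the higher liver mean of Lamb1. Lamb3 encodes the beta chain that joins that of Lama3 in an epithelial laminin. It fell in lung, with 1.52 ± 0.524 CPM in KO-labelled lung and 7.94 ± 2.23 CPM in lung controls (log2 change −2.38, SE 0.509, adjusted p = 0.0106), and averaged under 1 CPM in every liver and heart group. Lung epithelial cells express Lama3 and Lamb3, both of which fell in lung, and 6 lung epithelial markers summed to 215 to 390.4 CPM in KO-labelled lung and 1734 to 2271 CPM in lung controls, with none of the 6 at 0. The part of these cells in the result was not tested.

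Lamc1 encodes the gamma1 chain shared by most laminins, including those with Lama4 and Lama5. It lies at chr1:153218922-153332786, minus strand. It had 398, 245 and 256 CPM in the KO-labelled liver libraries, against 197, 167 and 168 CPM in the liver controls (log2 change 0.76, SE 0.186, adjusted p = 0.0107). In lung it had 573, 555 and 629 CPM in the KO-labelled libraries, against 138, 207 and 185 CPM in the controls (log2 change 1.73, SE 0.1901, adjusted p = 0.000151), the largest of its changes, and in heart 1261 and 1250.3 CPM in the KO-labelled libraries, against 630.4 and 592 CPM in the controls (log2 change 1.04, SE 0.229, adjusted p = 0.00666). Each tissue was without overlap, and in heart without heart control 2 the adjusted p was 0.0579 (log2 change 0.99). Lamc3, another gamma chain, passed nowhere and had 34.2 ± 15.4 CPM in KO-labelled lung and 23.9 ± 13.8 CPM in lung controls.

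Collagens XV and XVIII, the multiplexins, sit at the border of basement membrane and interstitium, and the C-terminal fragment of collagen XVIII is endostatin. Col18a1 (chr10:77052178-77166548, minus strand) had 52.5, 81.5 and 299.8 CPM in the KO-labelled liver libraries, against 17.8, 11.3 and 29.98 CPM in the liver controls (log2 change 2.87, SE 0.5496, adjusted p = 0.00221). Liver KO-labelled library 3 held the highest value, and without it the log2 change was 1.76, adjusted p = 0.00356. In heart Col18a1 had 839 and 684 CPM in the KO-labelled libraries, against 105 and 106 CPM in the controls (log2 change 2.85, SE 0.667, adjusted p = 0.00949), where leaving out any 1 of heart control 1 or heart control 2 gave an adjusted p of 0.073 to 0.0737. Lung had 36.8 ± 12.8 CPM in KO-labelled lung and 27.1 ± 5.53 CPM in lung controls, which overlapped. Col15a1 moved the other way in lung, with 10.8, 7.76 and 15.9 CPM in the KO-labelled libraries, against 84.2, 33.3 and 54.5 CPM in the controls (log2 change −2.32, SE 0.367, adjusted p = 0.00161). In heart it had 179 and 148 CPM in the KO-labelled libraries, against 298 and 206 CPM in the controls and did not pass (log2 change −0.62, adjusted p = 0.337).

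Collagen VIII forms a hexagonal network in vessel walls. Col8a1 rose in liver, with 2.77, 4.79 and 55.1 CPM in the KO-labelled libraries, against 3.43, 0.238 and 2.92 CPM in the controls (log2 change 3.22, SE 0.93996, adjusted p = 0.0275), but this rested on library 3: without it the log2 change was 0.76, adjusted p = 0.421. The groups overlapped, leaving out any 1 liver control gave an adjusted p of 0.0506 to 0.0841, and a fit of the liver groups alone gave 0.133. In heart Col8a1 had 421 and 548 CPM in the KO-labelled libraries, against 54.4 and 54.7 CPM in the controls (log2 change 3.15, SE 1.08, adjusted p = 0.0555), and in lung 20.7 ± 7.499 CPM in KO-labelled lung and 2.56 ± 0.371 CPM in lung controls (log2 change 3.01, SE 0.923, adjusted p = 0.0603). Neither passed, although no KO-labelled library overlapped a control in either tissue. Col8a2 passed nowhere and averaged at most 7.48 ± 2.86 CPM, in lung controls.

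Fibrillar collagens form the banded fibres of connective tissue. The genes of the main fibrils, Col1a1, Col1a2 and Col3a1, passed in no tissue. In heart Col1a1 had 319 and 318 CPM in the KO-labelled libraries, against 128 and 86.02 CPM in the controls (log2 change 1.57, adjusted p = 0.109), and Col3a1 had 545 and 477 CPM in the KO-labelled libraries, against 234 and 136 CPM in the controls (log2 change 1.47, adjusted p = 0.116). Col1a2 had 279 and 324 CPM in the KO-labelled libraries, against 128 and 121 CPM in the controls (log2 change 1.28, adjusted p = 0.13). In heart each KO-labelled library lay above the controls for all 3 genes. In lung Col1a1 had 128, 309 and 70.7 CPM in the KO-labelled libraries, against 159.9, 69.3 and 98.2 CPM in the controls, Col1a2 had 121, 258 and 109 CPM in the KO-labelled libraries, against 163, 96.3 and 125 CPM in the controls, and Col3a1 had 71.4, 153 and 44.3 CPM in the KO-labelled libraries, against 162, 53.7 and 85.3 CPM in the controls. Lung KO-labelled library 2 held the highest of these values for each gene. The 3 genes summed to 6.12 to 31.5 CPM in KO-labelled liver and 26.7 to 35.03 CPM in liver controls.

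Fibroblasts produce these fibrils, and their markers went in both directions in heart. The 8 fibroblast markers summed to 735 to 992 CPM in KO-labelled heart and 364 to 414 CPM in heart controls, but Pi16 alone carried this difference, with 627 ± 142 CPM in KO-labelled heart and 118 ± 5.56 CPM in heart controls (log2 change 2.4, adjusted p = 0.012). The 7 markers other than Pi16 summed to 209 to 264 CPM in KO-labelled heart and 242 to 299.9 CPM in heart controls, Clec3b fell, the other 6 did not pass, and the median log2 change of the 8 was −0.25. In liver the 8 summed to 81.6 to 199 CPM in KO-labelled libraries and 10.2 to 15.05 CPM in controls, again mostly Pi16, with 122 ± 52.05 CPM in KO-labelled liver and 5.04 ± 2.94 CPM in liver controls (log2 change 4.59, adjusted p = 5.26e-05). Without Pi16 the liver sums were 5.97 to 20.5 CPM in KO-labelled libraries and 6.64 to 10.06 CPM in controls, Pdgfra rose, Lum and Dpt fell, and the median of the 8 was −0.62. Lung had 129 to 227 CPM in KO-labelled libraries and 154 to 188 CPM in controls, with none of the 8 past the threshold and a median of −0.56.

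The 8 mural cell markers summed to 411 to 939 CPM in KO-labelled liver and 155 to 202 CPM in liver controls, mostly Abcc9, the one marker that passed, which had 597 ± 202 CPM in KO-labelled liver and 133 ± 12.1 CPM in liver controls (log2 change 2.17, adjusted p = 3.34e-05). Without Abcc9 the sums overlapped, at 17.3 to 141 CPM in KO-labelled liver and 27.7 to 57.98 CPM in liver controls, and the median log2 change of the 8 was 1.66. In lung the mural sums were 123 to 264 CPM in KO-labelled libraries and 85.1 to 101 CPM in controls. Rgs5, the one marker that passed there, had 133 ± 74.4 CPM in KO-labelled lung and 18.3 ± 2.95 CPM in lung controls (log2 change 2.87, adjusted p = 0.0406), the other 7 summed to 36.6 to 47.9 CPM in KO-labelled lung and 64.8 to 81.4 CPM in lung controls, and the median was −0.67. In heart the mural sums were 538 to 700.2 CPM in KO-labelled libraries and 968 to 1049 CPM in controls, and without Rgs5 399 to 446 CPM in KO-labelled libraries and 441 to 442 CPM in controls, with Abcc9 rising and a median of −0.21. No fibroblast or mural marker was at 0 in a whole group.

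Markers of other cells also differed in heart. Of 5 leukocyte markers tested, Ptprc, Cd68, Lyz2 and Itgam rose (median log2 change 2.15), and the list of 6 summed to 117 to 213 CPM in KO-labelled heart and 20.7 to 35.8 CPM in heart controls, where Cd3e was at 0. Of 6 lung epithelial markers, the surfactant genes Sftpc, Sftpb and Sftpa1 rose (median 3.21), and the list summed to 80.3 to 131 CPM in KO-labelled heart and 7.31 to 9.28 CPM in heart controls. Of 6 cardiomyocyte markers, Actc1, Myl2 and Tnni3 fell (median −1.41), with sums of 123 to 148 CPM in KO-labelled heart and 143 to 224 CPM in heart controls, which overlapped. In lung the leukocyte list summed to 63.2 to 188 CPM in KO-labelled libraries and 471 to 560 CPM in controls. Lyz2 alone passed there, and fell. The cardiomyocyte list had 19.9 to 159 CPM in KO-labelled lung and 7.95 to 12.4 CPM in lung controls. Tnnt2 rose and the other 5 did not pass. Of 6 stellate markers, Colec11 and Ecm1 rose in liver (median 0.57). Their list summed to 214 to 382 CPM in KO-labelled liver and 129 to 156 CPM in liver controls, mostly Ecm1. The part of these cells in the fibrillar, fibronectin, fibrillin and tenascin results was not tested.

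**Figure D4:**
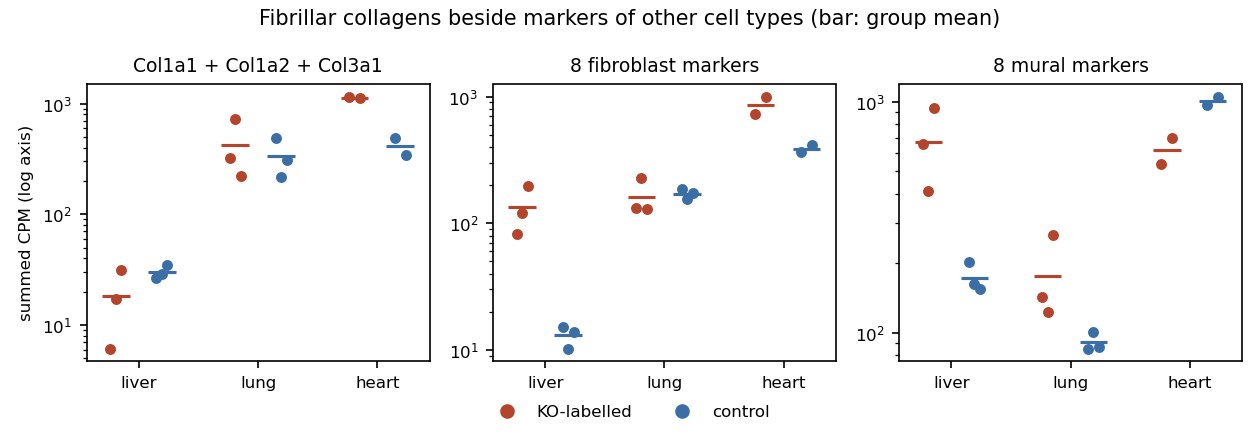
Summed CPM on a log axis per library of Col1a1, Col1a2 and Col3a1 (left), of 8 fibroblast markers (middle) and of 8 mural cell markers (right), KO-labelled left of control in each tissue, with bars at group means. In heart the first 2 sums are higher in both KO-labelled libraries and the mural sum is lower; in liver the fibroblast and mural sums are higher and the fibrillar sum overlaps. Pi16 carries the fibroblast sums of KO-labelled liver and heart, and Abcc9 the mural sum of liver.

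Among the minor fibrillar collagens, which set the diameter of fibrils or lie in other tissues, Col5a1, Col5a2 and Col27a1 passed in at least 1 tissue. Col5a1 (chr2:27886425-28039514, plus strand) had 59.2, 74.01 and 33.1 CPM in the KO-labelled liver libraries, against 2.95, 4.19 and 4.01 CPM in the liver controls (log2 change 3.9, SE 0.275, adjusted p = 8.72e-07). In heart it had 118 and 94.004 CPM in the KO-labelled libraries, against 50.7 and 44.9 CPM in the controls (log2 change 1.15, SE 0.295, adjusted p = 0.0156), and leaving out any 1 of heart KO-labelled 1, heart control 1 or heart control 2 gave an adjusted p of 0.0626 to 0.11. Lung had 37.3 ± 5.44 CPM in KO-labelled lung and 45.7 ± 8.07 CPM in lung controls, which overlapped. Col5a2, whose product joins that of Col5a1 in collagen V, rose in heart, with 334 and 339.6 CPM in the KO-labelled libraries, against 62.8 and 58.3 CPM in the controls (log2 change 2.48, SE 0.2297, adjusted p = 2.8e-05). In liver its values were 73.9, 83.7 and 74.7 CPM in the KO-labelled libraries, against 65.8, 58.3 and 61.3 CPM in the controls, without overlap but not past the threshold (log2 change 0.33, adjusted p = 0.229).

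Col27a1 (chr4:63214004-63334991, plus strand), a collagen of cartilage and bone, was called in opposite directions in different tissues. It had 9.41, 5.86 and 5.904 CPM in the KO-labelled liver libraries, against 58.9, 50.8 and 41.5 CPM in the liver controls (log2 change −2.84, SE 0.263, adjusted p = 7.91e-06). In lung it fell at a lower level, with 1.47 ± 0.402 CPM in KO-labelled lung and 3.47 ± 0.741 CPM in lung controls (log2 change −1.24, SE 0.272, adjusted p = 0.0118), and without lung control 2 the adjusted p was 0.0519 (log2 change −1.09). In heart it rose, with 49.1 and 31.8 CPM in the KO-labelled libraries, against 13.3 and 13.5 CPM in the controls (log2 change 1.59, SE 0.306, adjusted p = 0.00295). None of the 3 tissues had overlapping groups. Col5a3 and Col11a2 passed nowhere, and reached 25.8 ± 2.998 and 3.602 ± 1.58 CPM in KO-labelled heart, against 25.2 ± 14.03 and 7.02 ± 2.55 CPM in heart controls.

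Collagen VI forms beaded filaments close to cells, from the products of Col6a1, Col6a2 and a further chain such as that of Col6a3. Col6a3 rose in liver, with 203, 139 and 85.8 CPM in the KO-labelled libraries, against 35.6, 11.8 and 31.4 CPM in the controls (log2 change 2.44, SE 0.411, adjusted p = 0.000908), without overlap. Col6a1 and Col6a2 did not pass there, with 2.85 ± 2.23 CPM in KO-labelled liver and 3.46 ± 0.716 CPM in liver controls, and 2.698 ± 2.03 CPM in KO-labelled liver and 3.13 ± 0.351 CPM in liver controls. The chains thus moved apart in liver, where Col6a3 averaged 11.9 RPKM in KO-labelled libraries beside 0.651 RPKM for Col6a1 and 0.324 RPKM for Col6a2. In heart Col6a1 had 165 and 121 CPM in the KO-labelled libraries, against 75.04 and 66.98 CPM in the controls, Col6a2 had 128 and 103 CPM in the KO-labelled libraries, against 87.7 and 62.2 CPM in the controls, and Col6a3 had 123 and 88.6 CPM in the KO-labelled libraries, against 50.5 and 42.3 CPM in the controls. None passed (0.115, 0.36 and 0.103 as adjusted p), and each KO-labelled value lay above the controls. Col6a5, Col6a6 and the anchoring fibril gene Col7a1 passed nowhere and averaged at most 7.59 ± 2.15 CPM, for Col6a6 in heart controls.

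Fibril-associated collagens decorate the surface of fibrils. Col12a1 rose in heart, with 19.4 and 12.8 CPM in the KO-labelled libraries, against 2.73 and 2.55 CPM in the controls (log2 change 2.61, SE 0.447, adjusted p = 0.00141). Col16a1 rose in heart, with 40.9 and 30.1 CPM in the KO-labelled libraries, against 11.8 and 10.1 CPM in the controls (log2 change 1.7, SE 0.332, adjusted p = 0.00319), and in liver, with 7.49 ± 0.811 CPM in KO-labelled liver and 1.79 ± 0.488 CPM in liver controls (log2 change 2.06, SE 0.287, adjusted p = 0.000216). In lung Col12a1 had 69.4 ± 29.97 CPM in KO-labelled lung and 48.2 ± 15.6 CPM in lung controls, which did not pass, and it stayed under 1 CPM on average in both liver groups. Col9a3 fell in liver at a low level, with 1.13 ± 0.357 CPM in KO-labelled liver and 2.36 ± 0.436 CPM in liver controls (log2 change −1.06, SE 0.354, adjusted p = 0.0497), and 6.07% of its exon bases overlap Tcfl5 on the other strand. Col14a1 and Col20a1 passed nowhere.

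Transmembrane collagens are anchored in the plasma membrane. Col17a1 (chr19:47646344-47692094, minus strand), known as the hemidesmosome collagen of skin, had 0.677, 0.029001 and 0.128 CPM in the KO-labelled liver libraries, against 10.2, 10.6 and 11.5 CPM in the liver controls (log2 change −5.28, SE 0.657, adjusted p = 8.51e-05), the largest fall of the set. In liver 26 reads were counted over the 3 KO-labelled libraries and 1076 over the controls. Without KO-labelled library 1 the log2 change was −7.07, adjusted p = 4.92e-06. Lung and heart groups averaged under 1 CPM. Col23a1 rose in liver, with 12.4, 17.5 and 36.7 CPM in the KO-labelled libraries, against 4.902, 5.24 and 4.86 CPM in the controls (log2 change 2.15, SE 0.491, adjusted p = 0.007). Col13a1, a collagen of cell adhesion sites, was abundant in liver alone among the tissues, with 656, 755 and 1079 CPM in the KO-labelled libraries, against 461, 579 and 624 CPM in the controls, groups that did not overlap and did not pass (log2 change 0.58, adjusted p = 0.365). Col25a1 and, among other collagens, Col28a1 passed nowhere, and Col28a1 reached 22.4 ± 10.8 CPM in KO-labelled heart and 10.7 ± 5.54 CPM in heart controls.

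Fibronectin, a ligand of several integrins that is deposited early in wounds, rose in heart and lung. Fn1 (chr1:71585520-71653200, minus strand) had 3333 and 3615 CPM in the KO-labelled heart libraries, against 479 and 477 CPM in the heart controls (log2 change 2.86, SE 0.493, adjusted p = 0.00145). In lung it had 127, 255 and 127 CPM in the KO-labelled libraries, against 78.99, 55.7 and 69.8 CPM in the controls (log2 change 1.31, SE 0.383, adjusted p = 0.0496). The lung call was at the edge of the threshold: leaving out any 1 of heart KO-labelled 1, heart KO-labelled 2, heart control 1, heart control 2, liver control 1, liver control 2, lung KO-labelled 2, lung KO-labelled 3, lung control 1, lung control 2 or lung control 3 gave an adjusted p of 0.0524 to 0.193. In liver it had 46.9, 39.7 and 109 CPM in the KO-labelled libraries, against 33.3, 41.4 and 69.2 CPM in the controls, groups that overlapped (log2 change 0.44, adjusted p = 0.457). The plot of single genes by library shows this order of tissues for Fn1 beside that of Thbs1 and Col5a1.

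**Figure D5:**
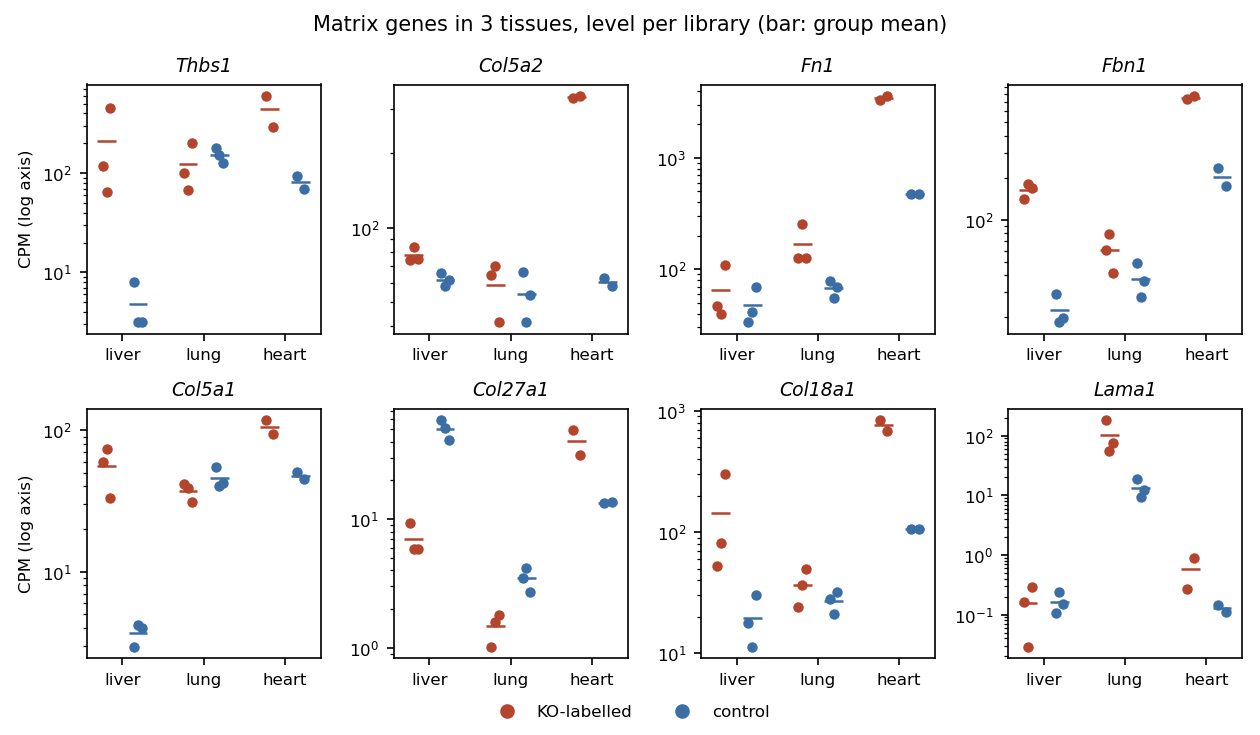
Level in CPM on a log axis of 8 matrix genes in each library of liver, lung and heart, KO-labelled libraries left of controls, with bars at group means. Col5a2 and Fn1 stand out in KO-labelled heart, Col27a1 is lower in KO-labelled liver and lung but higher in KO-labelled heart, and Lama1 is at 54.99 CPM or more in KO-labelled lung.

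Fibrillin microfibrils and elastin make up elastic fibres. Fbn1 (chr2:125300594-125507993, minus strand), the fibrillin of adult tissue, had 141, 179.5 and 169 CPM in the KO-labelled liver libraries, against 29.1, 18.3 and 19.7 CPM in the liver controls (log2 change 2.86, SE 0.268, adjusted p = 8.27e-06). In heart it had 729 and 775 CPM in the KO-labelled libraries, against 233 and 174 CPM in the controls (log2 change 1.89, SE 0.314, adjusted p = 0.00114), and in lung 60.4 ± 18.6 CPM in KO-labelled lung and 37.4 ± 10.6 CPM in lung controls, which overlapped (log2 change 0.69, adjusted p = 0.114). Of its exon bases, 20.1% also lie in exons of Gm9913 on the other strand. Fbn2 was counted 14 times over KO-labelled liver and 2 times over liver controls, and 31 times over KO-labelled lung and 2 times over lung controls, too few for a fold change. Eln, the elastin gene, passed in no tissue. It had 194, 162 and 133 CPM in the KO-labelled lung libraries, against 374, 345 and 429 CPM in the lung controls (log2 change −1.23, adjusted p = 0.0533), and 485 and 581 CPM in the KO-labelled heart libraries, against 235 and 264 CPM in the heart controls (log2 change 1.09, adjusted p = 0.104). The controls were higher in lung and the KO-labelled libraries in heart, without overlap in either.

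Matricellular genes held the largest rises. Thbs1 (chr2:118111876-118127133, plus strand), a thrombospondin that inhibits angiogenesis and activates latent TGF-beta, had 119, 64.99 and 449.6 CPM in the KO-labelled liver libraries, against 8.09, 3.13 and 3.19 CPM in the liver controls (log2 change 5.45, SE 0.736, adjusted p = 0.00017). Liver KO-labelled library 3 held the highest value, and without it the log2 change was 4.24, adjusted p = 9.49e-05. Without liver control 1, the highest control, it was 6.08, adjusted p = 0.000608. In heart Thbs1 had 602 and 292 CPM in the KO-labelled libraries, against 93.5 and 70.03 CPM in the controls (log2 change 2.45, SE 0.774, adjusted p = 0.0403), where leaving out any 1 of heart KO-labelled 1, heart control 1, heart control 2, lung control 1, lung control 2 or lung control 3 gave an adjusted p of 0.051 to 0.213. Without heart KO-labelled 1 the log2 change was 1.86. Lung had 100.02, 67.4 and 201 CPM in the KO-labelled libraries, against 178, 154 and 125 CPM in the controls, groups that overlapped (log2 change −0.31, adjusted p = 0.816).

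Tnc, which encodes tenascin C of healing and remodelling tissue, had 319.7 and 208 CPM in the KO-labelled heart libraries, against 7.57 and 5.099 CPM in the heart controls (log2 change 5.38, SE 1.24, adjusted p = 0.00876). The rise was seen in both KO-labelled heart libraries, but leaving out any 1 of heart KO-labelled 1, heart control 1 or heart control 2 gave an adjusted p of 0.0515 to 0.0862. In liver and lung Tnc averaged at most 1.85 ± 1.18 CPM, in lung controls. Thbs4 rose in heart, with 15.5 and 18.5 CPM in the KO-labelled libraries, against 2.23 and 1.302 CPM in the controls (log2 change 3.27, SE 0.7205, adjusted p = 0.00675), where without heart control 2 the adjusted p was 0.0766 (log2 change 2.93). In lung it rose at a very low level, with 52 reads over the 3 KO-labelled libraries and 4 over the 3 controls (log2 change 3.7, adjusted p = 0.0169), where leaving out any 1 of lung KO-labelled 2, lung control 1 or lung control 3 gave an adjusted p of 0.0685 to 0.0729. The log2 change was 2.9 without lung KO-labelled 2 and 4.95 without lung control 2 (adjusted p = 0.026). Liver held 1 read of Thbs4 over the KO-labelled libraries and 2 over the controls. Thbs2 passed nowhere and had 9.85 ± 5.64 CPM in KO-labelled liver and 23.1 ± 2.34 CPM in liver controls (log2 change −1.23, adjusted p = 0.104).

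Sparc, a collagen-binding protein abundant in endothelium, passed in no tissue. It had 2773, 1758 and 1088 CPM in the KO-labelled liver libraries, against 2143, 2075 and 2001 CPM in the liver controls. Heart had 2907 and 3016 CPM in the KO-labelled libraries, against 1628 and 1382 CPM in the controls (log2 change 0.98, adjusted p = 0.0699), without overlap, and lung 459.7, 749 and 434 CPM in the KO-labelled libraries, against 539, 384 and 429 CPM in the controls. Of the 2 small leucine-rich proteoglycans, Bgn (biglycan, chrX:73483602-73495933, plus strand) rose in each tissue. It had 1897, 2077 and 1627 CPM in the KO-labelled liver libraries, against 1077, 1043 and 1239 CPM in the liver controls (log2 change 0.74, SE 0.162, adjusted p = 0.00545). Lung had 320.00, 449 and 405 CPM in the KO-labelled libraries, against 272, 216 and 205 CPM in the controls (log2 change 0.76, SE 0.162, adjusted p = 0.0102), where without lung control 3 the adjusted p was 0.0567 (log2 change 0.69), and heart 807 and 883 CPM in the KO-labelled libraries, against 246 and 275 CPM in the controls (log2 change 1.7, SE 0.202, adjusted p = 0.000133). No tissue had overlapping groups. Dcn (decorin), a fibroblast product, passed nowhere, with 314 and 489 CPM in the KO-labelled heart libraries, against 275 and 434 CPM in the heart controls. Lung had 92.5, 147 and 174 CPM in the KO-labelled libraries, against 125, 84.8 and 137 CPM in the controls, and liver 12.8 ± 7.804 CPM in KO-labelled liver and 11.6 ± 4.05 CPM in liver controls.

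The knockout effects were then compared between tissues by interaction contrasts in the same fit. Between lung and liver 14 of the 59 genes differed (23.7%), with 5 effects higher and 9 lower in lung, against 6.2% of all tested genes (3.13% higher and 3.08% lower) and 7.55% of those at the 1 CPM minimum. Heart differed from liver in 7 genes (11.9%), 6 of them higher and 1 lower in heart, against 8.32% of all tested genes (4.62% higher and 3.7% lower) and 10.0% at that minimum. Heart differed from lung in 10 genes (16.9%), 10 of them higher in heart and 0 lower, against 6.4% of all tested genes (3.83% higher and 2.57% lower) and 7.6% at that minimum. Of these calls 8, 4 and 3 for lung against liver, heart against liver and heart against lung held under every omission of a single library, and without any 1 of the 4 heart libraries the heart and lung count was 3 to 6. Each pair of contrasts shares the libraries of a tissue. Col5a1 had the clearest gap between lung and liver (log2 change −4.2, adjusted p = 2.18e-05), and Col27a1 differed in each of the 3 pairs (log2 change 1.59, adjusted p = 0.0201 for lung against liver, log2 change 4.43, adjusted p = 4.42e-05 for heart against liver, and log2 change 2.84, adjusted p = 0.00183 for heart against lung). For Col27a1 the lung and liver call ended without liver control 1, lung KO-labelled 3 or lung control 3, with an adjusted p of up to 0.0554. Col5a2 rose more in heart than in lung (log2 change 2.35, adjusted p = 0.000562) and in liver (log2 change 2.15, adjusted p = 0.000669). Lama4 differed between lung and liver (log2 change 1.37, adjusted p = 0.00144), as did Lama5 (log2 change −1.22, adjusted p = 0.00963).

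Control libraries show in which sorted samples each matrix gene was found. The 8 fibroblast markers summed to 364 to 414 CPM in heart controls, 10.2 to 15.05 CPM in liver controls and 154 to 188 CPM in lung controls. For the 8 mural markers the sums were 968 to 1049 CPM, 155 to 202 CPM and 85.1 to 101 CPM in the same order. The part of these cells in the differences between control tissues was not tested. Between control tissues 39 of the 59 genes differed for lung against liver (27 higher and 12 lower in lung), 44 for heart against liver (39 higher and 5 lower in heart), and 33 for heart against lung (27 higher and 6 lower in heart). These are 66.1%, 74.6% and 55.9% of the set. For lung against liver 47.0% of all tested genes passed (24.6% higher and 22.4% lower), and 52.7% of those at the 1 CPM minimum. Heart against liver gave 47.6% (23.8% higher and 23.9% lower) and 53.7%, and heart against lung 29.5% (13.5% higher and 16.1% lower) and 33.2%. Calls for a higher level in heart controls thus outnumbered calls for a lower one against both other tissues, and covered most of the set against liver. Thbs4, Fbn2 and Col6a6 reached 1 CPM in heart libraries alone, and Lama1 and Lamb3 in lung libraries alone. The 1 CPM minimum thus favoured calls for these genes, and they are no independent evidence of a difference. Among the basement membrane linkers Hspg2 had 93.5 ± 17.4 CPM in lung controls, against 2728 ± 503 CPM in liver controls (log2 change −4.87, adjusted p = 1.02e-08) and 5783 ± 564 CPM in heart controls. Nid2 was highest in heart controls (199.7 ± 23.3 CPM), against 32.2 ± 9.22 CPM in liver and 4.75 ± 1.14 CPM in lung. Col13a1 was high in liver controls, where it was −6.67 on the log2 scale in lung over liver and −5.83 in heart over liver. Lama5 was higher in lung controls than in liver controls (log2 change 1.79, adjusted p = 2.25e-06), while Lama4 was lower (log2 change −3.32, adjusted p = 2.87e-09). Per kilobase, the leading genes of liver controls were Sparc (547 RPKM), Col4a1 (254), Hspg2 (191) and Bgn (184), those of lung controls Col4a1 (206), Col4a2 (142) and Sparc (119), and those of heart controls Col4a1 (445), Hspg2 (404), Sparc (397) and Col4a2 (335). In KO-labelled heart Fn1 entered the leading 5 at 297 RPKM.

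Genes that make, modify or read the matrix were examined as 3 lists. These were chosen with earlier results of these data known, so their counts are no independent evidence. Of 30 genes of collagen synthesis and cross-linking, 11 rose and 2 fell in liver, 4 rose and 2 fell in lung, and 14 rose and 1 fell in heart, with median log2 changes of 0.33, 0.05 and 0.72. Over all tested genes 9.54% rose and 9.87% fell in liver, 4.35% rose and 4.11% fell in lung, and 10.2% rose and 9.09% fell in heart, with medians of 0.02, −0.02 and 0.01. Bmp1, the proteinase that trims procollagen ends, had 489 ± 72.8 CPM in KO-labelled liver and 3.73 ± 1.93 CPM in liver controls (log2 change 7.03, adjusted p = 1.29e-08). Fkbp10 and P3h1, a prolyl isomerase and a prolyl 3-hydroxylase of procollagen, rose in all 3 tissues. Fkbp10 had 80.7 ± 5.23 CPM in KO-labelled heart and 14.7 ± 1.67 CPM in heart controls (log2 change 2.46, adjusted p = 0.000118), and P3h1 had 69.9 ± 9.999 CPM in KO-labelled liver and 38.96 ± 4.93 CPM in liver controls (log2 change 0.84, adjusted p = 0.000368). In lung the Fkbp10 call ended without KO-labelled 2 or any 1 control (adjusted p up to 0.0666), and that of P3h1 without lung control 1 (0.0531). Crtap fell in lung, with 41.7 ± 9.6 CPM in KO-labelled lung and 63.7 ± 12.3 CPM in lung controls (log2 change −0.61, adjusted p = 0.0357). That call ended in 8 of 16 omissions of a single library (adjusted p up to 0.151). Colgalt2, a collagen galactosyltransferase, had 6.15 ± 1.65 CPM in KO-labelled liver and 39.9 ± 3.04 CPM in liver controls (log2 change −2.7, adjusted p = 2.08e-06), and Plod1, a lysyl hydroxylase, 149 ± 26.5 CPM in KO-labelled lung and 77.6 ± 4.48 CPM in lung controls (log2 change 0.94, adjusted p = 0.000862).

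Of 29 matrix receptor genes, 7 rose and 4 fell in liver, 5 rose and 2 fell in lung, and 10 rose and 1 fell in heart, with medians of 0.19, −0.24 and 0.55, where 19.4%, 8.46% and 19.3% of all tested genes passed in either direction. Itga2, the alpha chain of a collagen-binding integrin, had 35.6 ± 7.59 CPM in KO-labelled liver and 1.16 ± 0.314 CPM in liver controls (log2 change 4.92, adjusted p = 2.63e-08) and 55.04 ± 8.204 CPM in KO-labelled heart and 5.63 ± 1.69 CPM in heart controls (log2 change 3.29, adjusted p = 7.86e-06). Itgb3, which pairs with the alpha v chain to bind fibronectin and vitronectin, had 1145 ± 260.2 CPM in KO-labelled liver and 97.9 ± 15.7 CPM in liver controls (log2 change 3.55, adjusted p = 0.000118). The alpha v gene Itgav had 136 ± 35.1 CPM in KO-labelled heart and 35.04 ± 4.01 CPM in heart controls (log2 change 1.96, adjusted p = 7.26e-05). Itga5, the alpha chain of the fibronectin receptor, had 707 ± 218 CPM in KO-labelled heart and 218 ± 50.6 CPM in heart controls (log2 change 1.7, adjusted p = 0.000326). Ddr1, a collagen-binding tyrosine kinase, had 82.9 ± 25.5 CPM in KO-labelled liver and 2.67 ± 0.799 CPM in liver controls (log2 change 4.96, adjusted p = 9.61e-07). Sdc3 fell in lung, with 170 ± 16.5 CPM in KO-labelled lung and 299 ± 30.1 CPM in lung controls (log2 change −0.81, adjusted p = 0.00498).

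Of 36 other matrix genes, 12 rose and 4 fell in liver, 6 rose and 3 fell in lung, and 12 rose and 4 fell in heart, with medians of 0.74, −0.13 and 0.93, against the same 19.4%, 8.46% and 19.3% of all tested genes. Ltbp4, which binds latent TGF-beta and takes part in elastic fibre assembly, fell in every tissue. It had 208 ± 88.7 CPM in KO-labelled liver and 3291 ± 316 CPM in liver controls (log2 change −3.99, adjusted p = 1.39e-06), 229 ± 47.5 CPM in KO-labelled lung and 784 ± 50.4 CPM in lung controls (log2 change −1.78, adjusted p = 0.00137), and 978 ± 278 CPM in KO-labelled heart and 4291 ± 261 CPM in heart controls (log2 change −2.13, adjusted p = 0.000821). Mmrn2, an endothelial matrix glycoprotein, had 343 ± 53.9 CPM in KO-labelled liver and 1229 ± 141 CPM in liver controls (log2 change −1.84, adjusted p = 5.38e-06). Ccn2, a matricellular growth factor regulator, had 694 ± 164 CPM in KO-labelled liver and 93.2 ± 43.1 CPM in liver controls (log2 change 2.9, adjusted p = 0.000274), Fbln2 had 545 ± 24.4 CPM in KO-labelled liver and 58.3 ± 27.7 CPM in liver controls (log2 change 3.22, adjusted p = 1.54e-05), and Tgfbi had 258 ± 127 CPM in KO-labelled lung and 17.1 ± 3.05 CPM in lung controls (log2 change 3.91, adjusted p = 0.000239). Emilin1, of elastic fibres, had 309 ± 41.3 CPM in KO-labelled heart and 105 ± 11.3 CPM in heart controls (log2 change 1.56, adjusted p = 0.000423).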

How the data were processed

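Whole-gene read counts were measured in 16 libraries and deposited by the authors as raw counts per gene, with no normalization. The submitters' processing notes name FastQC 0.11.5, STAR 2.7.6a and the build GRCm38. The sources used here do not give how reads were assigned to genes, with which annotation or whether by strand. The labels' protocols name an unstranded and a stranded kit without tying either to a library, so that reads of genes overlapping on opposite strands may be mixed. Symbols were matched to 99.6% of the 52636 genes, and exon lengths came from GENCODE vM21. The matrix genes, their classes and the other gene lists were chosen with earlier results of these data known.

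Genes were kept by edgeR's filterByExpr (minimum count 10, minimum total 15), TMM factors were computed, and 1 quasi-likelihood fit with a mean per tissue and genotype was made, with Benjamini-Hochberg adjustment within each contrast at 0.05 (R 4.3.3, edgeR 4.0.16, limma 3.58.1, DESeq2 1.42.0). CPM uses effective library sizes, RPKM divides CPM by the kilobases of merged exons, and the SE is the log2 change over the root of the F value. Total counts of 30226340 to 41449054 per library set the counting error. Values per library are given for matrix genes past the threshold with a mean of 10 CPM or more in that tissue, and for genes with a mean of 100 CPM or more. From each other list up to 4 genes per tissue with the smallest adjusted p were eligible. The fit was tested on simulated data. Other settings tried were DESeq2 and its size factors, upper-quartile factors, 2 other filters, separate fits, a replicate block, a term for sex, and leaving out each library. Sequences are RefSeq windows from GRCm38.p6. No deposited column was left out. Counts cover all 59 matrix genes, and the values of 1 of them are not reported here.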

Additional observations from a re-analysis of the deposited data

Results flagged for a closer look

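Each value here is a difference between the knockout effects of 2 tissues on the log2 scale, the first tissue minus the second, past an adjusted p of 0.05 in edgeR's quasi-likelihood interaction test. Between lung and liver the effect was lower in lung for Thbs1 (−5.76, adjusted p = 0.00229), Col5a1 (−4.2, 2.18e-05), Lamb3 (−3.39, 0.0201), Col6a3 (−3.09, 0.00525), Col23a1 (−2.47, 0.0458), Col16a1 (−2.24, 0.00397), Fbn1 (−2.18, 0.00271) and Lama5 (−1.22, 0.00963). It was higher in lung for Col17a1 (5.22, adjusted p = 0.00251), Nid2 (2.33, 0.0205), Col27a1 (1.59, 0.0201), Lama4 (1.37, 0.00144) and Lamc1 (0.97, 0.0432). Thbs1, Col5a1, Col16a1, Fbn1, Col6a3, Col17a1, Lama4 and Lama5 held under every omission of a single library. The Thbs1 difference was −4.55 without liver KO-labelled 3 (adjusted p = 0.00118) and −6.39 without liver control 1 (adjusted p = 0.00356), and that of Col17a1 was 7.01 without liver KO-labelled 1 (adjusted p = 7.22e-05). The call for Lamb3 ended without any 1 of liver KO-labelled 3 or liver control 1 and 3 (adjusted p up to 0.0588), and the difference was −2.62 without liver KO-labelled 3. That for Nid2 ended without any 1 of liver control 2 or lung control 1 and 3 (adjusted p up to 0.0585). The Col23a1 call ended in 11 of 16 omissions, all but those of liver KO-labelled 1 and 2, lung KO-labelled 3 and heart control 1 and 2 (adjusted p up to 0.099), and the Lamc1 call in 14 of 16 omissions, all but those of liver KO-labelled 1 and lung control 2 (adjusted p up to 0.0976). That for Col27a1 ended without any 1 of liver control 1, lung KO-labelled 3 or lung control 3 (adjusted p up to 0.0554).

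Between heart and liver the effect was higher in heart for Col17a1 (6.7, adjusted p = 0.00129), Col27a1 (4.43, 4.42e-05), Fn1 (2.42, 0.025), Col5a2 (2.15, 0.000669), Eln (2.06, 0.0428) and Bgn (0.96, 0.033), and lower for Col5a1 (−2.75, 0.00102). Eln passed here although its own change passed in neither tissue. The calls for Col17a1, Col27a1, Col5a2 and Col5a1 held under every omission. Without liver KO-labelled 1 the Col17a1 difference was 8.49 (adjusted p = 4e-05), and without liver KO-labelled 3 that of Fn1 was 3.01 (adjusted p = 0.00242). That for Fn1 ended without any 1 of heart KO-labelled 1 and 2, heart control 1 and 2 or liver control 3 (adjusted p up to 0.103), that for Bgn without any 1 of heart KO-labelled 1 and 2, heart control 1 and 2, liver KO-labelled 3 or liver control 1 and 3 (adjusted p up to 0.139), and that for Eln in 13 of 16 omissions, all but those of liver KO-labelled 3, liver control 2 and lung KO-labelled 3 (adjusted p up to 0.153).

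Between heart and lung the effect was higher in heart for Tnc (5.64, adjusted p = 0.0418), Col27a1 (2.84, 0.00183), Col5a2 (2.35, 0.000562), Eln (2.32, 0.0302), Col12a1 (2.08, 0.0379), Col16a1 (1.88, 0.0196), Col5a1 (1.44, 0.038), Lama5 (1.22, 0.0201) and Bgn (0.93, 0.0444). Col27a1 and Col5a2 held under every omission. The Col16a1 call ended without any 1 of heart KO-labelled 1 or heart control 1 and 2 (adjusted p up to 0.0941), that for Lama5 without any 1 of heart KO-labelled 1, heart control 1 and 2 or lung control 3 (adjusted p up to 0.0953), that for Col12a1 without any 1 of heart KO-labelled 1, heart control 1 and 2, lung KO-labelled 1 and 2 or lung control 2 and 3 (adjusted p up to 0.151), and that for Eln without any 1 of heart KO-labelled 1 and 2, heart control 1 and 2, lung KO-labelled 3 or lung control 1 and 3 (adjusted p up to 0.12). The Col5a1 call ended without any 1 of heart KO-labelled 1 and 2, heart control 1 and 2, lung KO-labelled 1 and 3 or lung control 1 and 3 (adjusted p up to 0.146), that for Bgn in 13 of 16 omissions, all but those of liver KO-labelled 2 and 3 and lung KO-labelled 2 (adjusted p up to 0.161), and that for Tnc in 13 of 16 omissions, all but those of liver KO-labelled 1, 2 and 3 (adjusted p up to 0.169).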

How the results depend on the processing

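The number of matrix genes past the threshold was 20 in liver, and 17 to 23 under the 8 other settings tried (DESeq2 size factors or upper-quartile factors in edgeR, DESeq2's own test, no filter, a filter of 1 CPM in 2 libraries, only the groups compared, a replicate block, and sex as a term). Lung had 13, and 12 to 16 under these settings. Heart had 18, and 28 when the heart libraries were fitted alone, and 18 to 22 otherwise. The difference between heart and liver was called for 7 genes, and for 12 by DESeq2 and 12 without a filter. That between heart and lung was called for 10 genes, and for 17 when only those tissues were fitted. The cause of these shifts was not tested.

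Leaving out 1 library at a time gave 18 to 21 genes in liver, 7 to 17 in lung, 11 to 24 in heart, 9 to 15 for lung against liver, 4 to 13 for heart against liver and 3 to 14 for heart against lung. Counts between control tissues were 37 to 41 (main 39), 36 to 46 (main 44) and 26 to 37 (main 33) for lung against liver, heart against liver and heart against lung. The largest falls came from lung control 2 (8) and 3 (7) for lung, heart control 2 (11) for heart, and liver control 1 and lung control 3 (9 each) for lung against liver. For heart against liver, heart KO-labelled 1 or 2, heart control 2 or liver control 3 left 4, and omission of liver KO-labelled 3 gave 13. For heart against lung, omission of heart KO-labelled 1 or heart control 1 or 2 left 3, of lung control 3 left 4, and of heart KO-labelled 2, lung KO-labelled 1 or 3 or lung control 1 left 6.

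Whether library numbers pair the samples could not be settled. Correlations of the deviations of same-numbered libraries were −0.051, 0.24 and 0.101 in liver, −0.0676, −0.0797 and 0.0328 in lung and 0.0465 in heart. Different-numbered libraries gave −0.23 to 0.15 in liver, −0.0722 to 0.119 in lung and −0.0465 in heart. With 2 libraries a group, the heart values can differ only in sign. Heart control 2 is numbered by its title and carries the number 3 in its description. Sharing of animals between tissues was not examined. With number as a replicate block the counts were 19 in liver, 14 in lung, 19 in heart, 11, 6 and 10 for the differences between tissues, and 39, 45 and 34 between control tissues. Under the block Col8a1 and Nid2 in liver had an adjusted p of 0.0653 and 0.0529. Fn1 in lung ended under upper-quartile factors (0.0544) and with sex as a term (0.0579).

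Over all 59 matrix genes and 24 settings, 0 calls had opposite directions in the main and the other fit. Of the single-gene values for 39 matrix genes over all settings, 2629 kept their side of the threshold, 63 lost a call, 72 gained one, and 31 of genes not called in either fit moved by 1 SE or more. Low counts limit Fbn2, Thbs4 in liver and lung, and Col28a1 in liver, where a few reads stand behind a value, and the 2 libraries a group limit heart. The flagged differences of Lamb3 and Col17a1 also rest partly on low counts. Lamb3 had 43 reads over KO-labelled liver and 22 over liver controls. Col17a1 had 71 reads over KO-labelled heart and 23 over heart controls, and 85 over KO-labelled lung and 93 over lung controls.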
